A study of Mus musculus with 6 samples.

Results

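The LIF receptor, gp130 and STAT3 pathway was followed through 10 genes of the count table, taken by symbol from its 22001 genes: Lif, Lifr, Il6st, Cntfr, Osmr, Jak1, Jak2, Stat3, Socs3 and Gfap. The members were chosen by values of this same contrast, in which Lifr and Il6st were lower with Insm1. The members' differences between the groups are therefore given as a description, without p-values, and support nothing by themselves. RNA was measured in mCherry-positive cells of the mouse neocortex collected by flow sorting at E14.5, 24 h after their plasmids were delivered by electroporation at E13.5. In 3 libraries (Insm1) the plasmid encoded Insm1, a zinc-finger transcription factor, together with mCherry, and in the other 3 (control) it encoded mCherry only. Both groups thus went through surgery, electroporation, mCherry expression and sorting. The sources used here name neither the mouse strain, nor the promoter of the plasmids, nor the number of embryos behind a library. The replicate numbers are not said to be separate litters, so a p-value here reflects the spread among 6 libraries and part of that spread may be technical.

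Library totals lay between 30017645 and 31645135 counts, and 13560 genes had enough counts to be tested. Each library is given in CPM, its counts scaled to a common total and corrected for library composition. Values after ± are SDs over 3 libraries unless named as standard errors (SE). Insm1 itself was at 1570, 2173 and 1436 CPM in the Insm1 libraries, against 222, 331 and 371 CPM in the control libraries. Every Insm1 library was above every control, as the labels have it. Its log2 fold change was 2.49 (SE 0.26, adjusted p = 0.0122 in edgeR's quasi-likelihood test), and the exact two-sided permutation test gave p = 0.1, the smallest that 3 against 3 allows. Counts do not separate the plasmid's Insm1 from the chromosomal gene. Control library 2 stood apart from the other controls: 6 red blood cell genes summed to 3497 to 4891 CPM in the Insm1 libraries and to 715, 5258 and 307 CPM in control libraries 1, 2 and 3. For 7 microglia genes the sums were 11.2, 34.5 and 15.0 CPM in the Insm1 libraries and 2.72, 62.0 and 8.32 CPM in the control libraries. The log2 fold change of each tested member is therefore also given without control library 2. Without that library the red blood cell and microglia sums are higher in every Insm1 library than in the remaining controls. Leaving it out thus does not even out these cells between the groups.

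LIF and its relatives of the interleukin-6 family are secreted cytokines. Most act through receptors built on a shared signalling chain, gp130, encoded by Il6st. LIF joins gp130 to the LIF receptor chain, CNTF adds its own binding subunit, and oncostatin M can use the chain encoded by Osmr. The kinases JAK1 and JAK2 bound to these chains phosphorylate STAT3, which enters the nucleus and switches on genes that include Socs3, whose product shuts the receptors down. In the developing cortex this pathway is known for keeping neural progenitors from differentiating and, later, for driving astrocyte formation and Gfap expression.

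The promoters of 4 members are shown because they stand for both ends of the pathway: Lifr and Il6st are the receptor genes whose transcripts were lower, and Socs3 and Gfap are its known output genes. Each is a RefSeq window on GRCm38.p6 from 250 bases before to 50 bases after an annotated start, written 5′ to 3′ along the gene. Capitals mark matches to TTCNNNGAA, the palindrome that STAT factors recognise. The windows lie at chr15:7129322-7129621 (Lifr, plus strand), chr13:112463820-112464119 (Il6st, plus strand), chr11:117969317-117969616 (Socs3, minus strand) and chr11:102897151-102897450 (Gfap, minus strand).
Lifr: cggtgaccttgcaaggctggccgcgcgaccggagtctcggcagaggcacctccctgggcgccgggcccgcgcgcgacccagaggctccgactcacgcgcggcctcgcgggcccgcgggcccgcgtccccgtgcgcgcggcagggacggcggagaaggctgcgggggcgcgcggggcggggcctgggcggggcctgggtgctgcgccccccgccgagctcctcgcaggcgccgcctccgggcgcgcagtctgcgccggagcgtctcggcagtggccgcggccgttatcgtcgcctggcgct
Il6st: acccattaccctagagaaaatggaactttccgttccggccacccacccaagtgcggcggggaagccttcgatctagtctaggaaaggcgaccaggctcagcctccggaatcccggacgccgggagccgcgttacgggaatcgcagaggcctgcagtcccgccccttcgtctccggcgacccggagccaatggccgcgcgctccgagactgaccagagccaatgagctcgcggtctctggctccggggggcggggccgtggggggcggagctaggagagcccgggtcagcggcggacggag
Socs3: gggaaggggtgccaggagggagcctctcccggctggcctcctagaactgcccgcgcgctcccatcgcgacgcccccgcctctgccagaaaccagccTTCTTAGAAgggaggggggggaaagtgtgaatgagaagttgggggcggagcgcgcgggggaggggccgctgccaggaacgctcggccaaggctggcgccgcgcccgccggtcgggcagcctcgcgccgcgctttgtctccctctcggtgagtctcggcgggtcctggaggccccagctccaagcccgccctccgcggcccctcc
Gfap: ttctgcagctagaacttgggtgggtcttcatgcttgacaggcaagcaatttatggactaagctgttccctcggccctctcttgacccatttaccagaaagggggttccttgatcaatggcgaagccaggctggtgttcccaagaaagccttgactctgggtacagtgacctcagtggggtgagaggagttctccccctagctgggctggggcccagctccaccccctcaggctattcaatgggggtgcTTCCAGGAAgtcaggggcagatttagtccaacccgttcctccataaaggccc
All 10 members had at least 1 window, 16 in all. The motif was found in those of Socs3 (TTCTTAGAA, beginning at position -154) and Gfap (TTCCAGGAA, beginning at -2) and in none of the other 8 members. Over all 32851 windows of this length it was present in 8.3%. Counted by gene, 2582 of 27025 genes had it in at least 1 window. A second search, for CAGGGGGC, a core of the sequence that Insm1 is known to bind, on either strand, found no match in any of the 16 windows, and 2.87% of all windows hold it. Both are statements about letters within these windows and say nothing about binding. The Lifr window shown has a GC content of 81.3% with 53 CpG pairs and that of Il6st 68.3% with 33, where the median window has 52.7% and 7. The second RefSeq window of Lifr, at chr15:7140292-7140591, has 53.3% GC and 4 CpG pairs. In GENCODE M21 Lifr begins at 7090614, upstream of both windows, and no window at that start was searched. The minus-strand genes Socs3 and Gfap begin there at 117970047 and 102900912, also upstream of their windows, and those starts were not searched either.

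Of the 10 members, 7 had enough counts to be tested. Lifr and Il6st were lower with Insm1 and among the genes called at an adjusted p below 0.05, and Cntfr, Jak1, Jak2, Stat3 and Socs3 were not. No member was called higher, by edgeR, DESeq2, limma-voom or limma on TPM, and none was higher at an unadjusted p below 0.05 in those fits. Over all tested genes 2.12% were called lower, 1.23% higher and 3.35% either way, against which 2 of 7 members is not read as a result, since the members were chosen with this contrast in view. The median log2 fold change of the 7 was -0.05, and that of all tested genes was -0.01. The fold changes of the other 5 members, among them the kinases, the transcription factor and the feedback gene, were all smaller than those of Lifr and Il6st. In these bulk samples fewer cells of a type and less RNA per cell cannot be told apart.

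**Figure D1:**
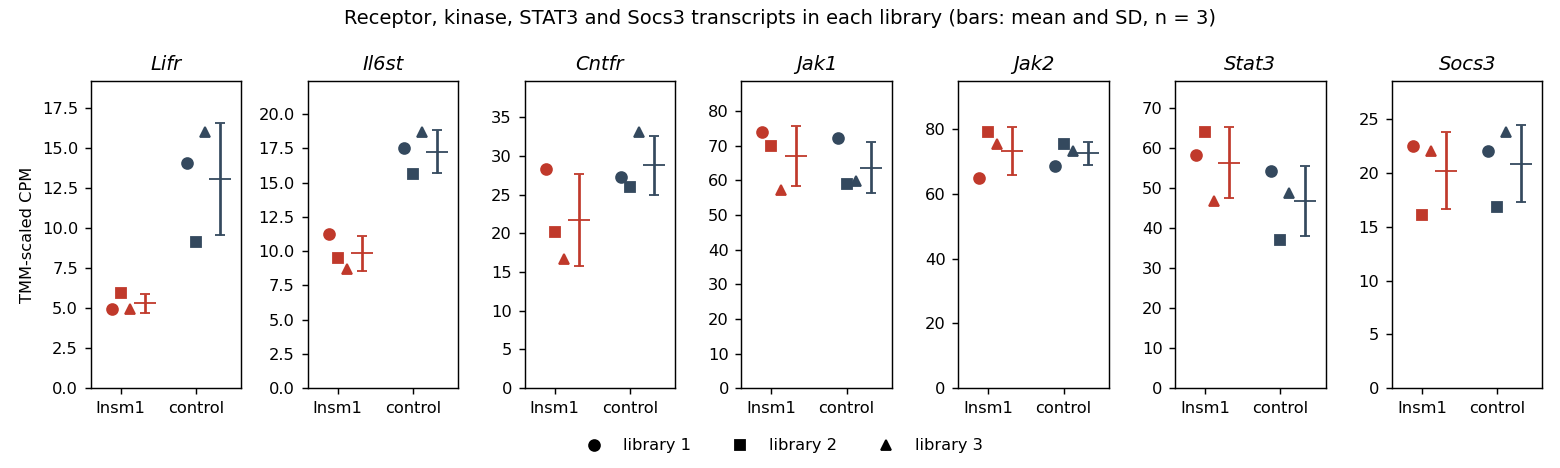
TMM-scaled CPM of the 7 tested members in each library, Insm1 libraries left and control libraries right in each panel, with the mean and SD (n = 3) beside the points and a linear axis from 0. The groups are apart for Lifr (4.95 to 5.96 CPM with Insm1, 9.15 to 15.99 CPM in controls) and Il6st (8.69 to 11.2 CPM with Insm1, 15.6 to 18.7 CPM in controls) and overlap in the other 5 genes.

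The ligand Lif was barely present. It had 0, 1 and 1 counts in Insm1 libraries 1, 2 and 3 and 0 counts in each control library. A floor of 3 counts corresponds to between 0.0948 and 0.0999 CPM in these libraries, so Lif was at or under it throughout and no fold is given. This limit and the others like it cover counting error only, because the amplified reads carry no molecular tags.

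Lifr encodes the LIF receptor chain, which LIF and several of its relatives share. It had 153, 184 and 154 counts in the Insm1 libraries, against 434, 282 and 490 counts in the control libraries, which is 4.95, 5.96 and 4.98 CPM with Insm1 and 14.1, 9.15 and 15.99 CPM in controls. The highest Insm1 library lay below the lowest control, and over all tested genes 22.2% had groups that did not overlap. The log2 fold change was -1.30 (SE 0.23), a 2.47-fold lower level with Insm1. The 3 Insm1 libraries lay close together (5.30 ± 0.579 CPM), whereas the controls were spread (13.1 ± 3.53 CPM), with control library 2 nearest to the Insm1 group. Without control library 2 the log2 fold change was -1.50 and Lifr was still called. Lifr was no longer called without any one of the other 5 libraries, with log2 fold changes between -1.40 and -1.13.

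Il6st encodes gp130, the chain common to most of the family. It had 348, 294 and 269 counts in the Insm1 libraries, against 540, 481 and 572 counts in the control libraries, which is 11.2, 9.53 and 8.69 CPM with Insm1 and 17.5, 15.6 and 18.7 CPM in controls. Here too every Insm1 library lay below every control, and control library 2 was less far from the other controls than in Lifr. The log2 fold change was -0.81 (SE 0.16), or 1.76-fold lower. It was -0.88 without control library 2 and -0.92 without Insm1 library 1, where Il6st was called, and -0.79 to -0.73 without each of the other 4 libraries, where it was not. With the replicate number as a block Lifr was called and Il6st was not, with log2 fold changes of -1.27 for Lifr and -0.82 for Il6st.

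Cntfr encodes the subunit that binds CNTF and is held to the membrane by a lipid anchor. It was at 28.3, 20.2 and 16.7 CPM in the Insm1 libraries, against 27.3, 25.9 and 33.1 CPM in the control libraries. Insm1 library 1 lay within the control range and the other Insm1 libraries lay below it. The log2 fold change was -0.41 (SE 0.19), between -0.64 and -0.25 with single libraries left out. The 2 values at the ends were those without Insm1 library 1 and without Insm1 library 3, and without control library 2 it was -0.47.

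Osmr, the oncostatin M receptor chain, had 4 counts in Insm1 library 1 and 0 in the other 5 libraries. The 4 counts amount to 0.129 CPM, just above the floor. On GRCm38, in the GENCODE M21 annotation, Osmr (chromosome 15, 6813577 to 6874969, minus strand) lies on the same chromosome as Lifr (chromosome 15, 7090614 to 7197489, plus strand), with 215644 bases between them. Il6st lies on chromosome 13 (112464070 to 112510086, plus strand) and Cntfr on chromosome 4 (41657498 to 41697089, minus strand), and no exon of these 4 receptor genes overlaps one of a further gene in the counts.

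The 3 receptor genes with counts kept their order in every library, Cntfr highest, then Il6st, then Lifr, in TPM, the authors' unit that divides counts by gene length. Their summed level was 8.73, 6.87 and 5.85 TPM in the Insm1 libraries, against 11.3, 9.88 and 13.48 TPM in the control libraries. The ratio of Lifr to Il6st in TPM was 0.298, 0.424 and 0.388 in the Insm1 libraries and 0.544, 0.397 and 0.580 in the control libraries, so the groups overlapped. The ratio of Cntfr to Il6st was 2.92, 2.46 and 2.23 in the Insm1 libraries and 1.82, 1.93 and 2.06 in the control libraries, which did not overlap. The mean TPM of Cntfr and that of Il6st were each lower with Insm1, whereas the mean of their ratio was higher, at 2.54 against 1.94 in controls. Il6st was chosen as lower in this contrast, so a member that differed less stands higher relative to it by that choice. The ratio of Lifr to Cntfr was 0.102, 0.172 and 0.174 in the Insm1 libraries and 0.300, 0.206 and 0.282 in the control libraries, again without overlap. Lifr was likewise chosen as lower. How often ratios of other gene pairs fail to overlap was not computed, so neither ratio is read as a result.

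Jak1 encodes a kinase that gp130 binds. It was at 73.9, 69.8 and 57.2 CPM in the Insm1 libraries and 72.2, 59.1 and 59.7 CPM in the control libraries. The groups overlapped, and the log2 fold change was 0.07 (SE 0.12), and 0.02 without control library 2. Exons of Jak1 (chromosome 4, 101152367 to 101265282, minus strand) overlap those of Raver2 on the other strand, which was at 11.0 to 14.9 CPM in the Insm1 libraries and 14.9 to 20.9 CPM in the control libraries. The strand setting of the counting is not given, so reads of such pairs cannot be told apart.

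Jak2, a second kinase of the receptor complex, was at 64.8, 79.0 and 75.5 CPM in the Insm1 libraries and 68.7, 75.5 and 73.3 CPM in the control libraries. The control values lay within the range of the Insm1 values. Its log2 fold change was 0.01 (SE 0.09), the smallest of the 7, and between -0.05 and 0.09 with single libraries left out. Without control library 2 it was 0.04.

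Stat3 encodes the transcription factor that carries the signal to the nucleus. It was at 58.3, 63.9 and 46.7 CPM in the Insm1 libraries and 54.2, 37.1 and 48.7 CPM in the control libraries. The groups overlapped, and control library 2 was again the lowest of its group. The log2 fold change was 0.27 (SE 0.15), and 0.13 without control library 2. Exons of Stat3 (chromosome 11, 100885098 to 100939540, minus strand) overlap those of Stat5a on the other strand, a gene counted at 0.452 to 1.00 CPM in the Insm1 libraries and 0.718 to 1.07 CPM in the control libraries. RNA does not show how much STAT3 protein is phosphorylated, which is the active form.

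Socs3, the feedback inhibitor that STAT3 induces, was at 22.5, 16.1 and 22.0 CPM in the Insm1 libraries and 22.0, 16.8 and 23.8 CPM in the control libraries. In both groups library 2 was the lowest. The log2 fold change was -0.05 (SE 0.18), between -0.18 and 0.09 with single libraries left out, the lower end being that without control library 2. Gfap, the astrocyte intermediate filament gene that STAT3 activates later in development, had 0 counts in all 6 libraries, which allows at most 0.0999 CPM in any of them. The values of Socs3 overlapped between the groups, and Gfap was not detectable at this depth.

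Per length, Socs3 was the most abundant member, at 43.4 ± 7.55 TPM in the Insm1 libraries and 47.0 ± 9.001 TPM in the control libraries. Jak2 followed, at 10.2 ± 1.08 TPM with Insm1 and 10.5 ± 0.540 TPM in controls. Stat3 was at 8.81 ± 1.37 TPM with Insm1 and 7.65 ± 1.5 TPM in controls, and Jak1 at 5.05 ± 0.637 TPM with Insm1 and 5.02 ± 0.568 TPM in controls. In both groups the means of Socs3, Jak2 and Stat3 were above those of all 3 receptor genes, and that of Jak1 was above Cntfr with Insm1 and below it in controls. Cntfr was at 4.67 ± 1.25 TPM with Insm1 and 6.49 ± 1.00 TPM in controls, and Il6st at 1.82 ± 0.231 TPM with Insm1 and 3.35 ± 0.368 TPM in controls. Lifr, the lowest of the 7, was at 0.664 ± 0.0746 TPM with Insm1 and 1.72 ± 0.495 TPM in controls. In the order of the Insm1 libraries, Jak2 and Stat3 overlapped, as did Jak1 and Cntfr, and in that of the controls Stat3 and Cntfr overlapped. The other neighbours among the 7 did not overlap. Over both groups Socs3 lay above 84.7% of the 17277 genes with a TPM above 0, and Lifr above 37.9%.

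**Figure D2:**
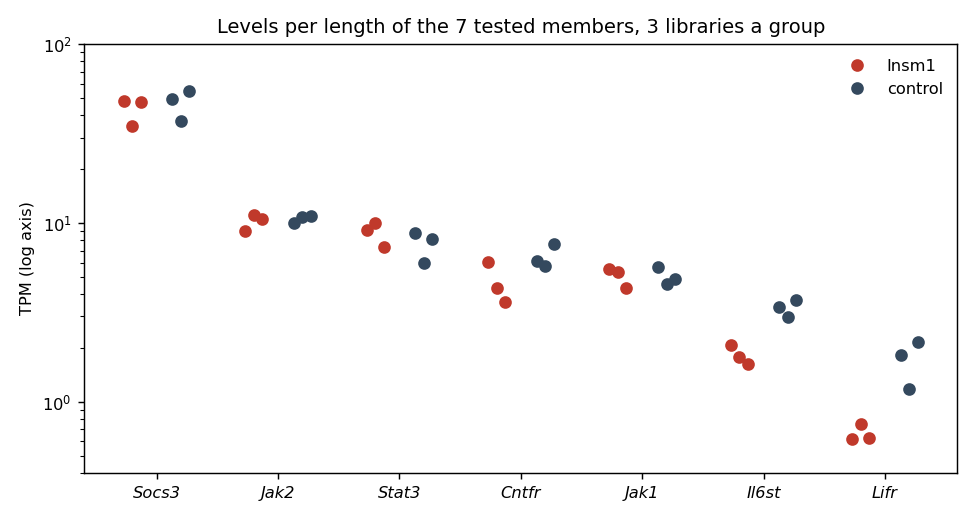
TPM of the 7 tested members on a log axis, each point 1 library, Insm1 left and control right for each gene. Socs3 stands between 34.7 and 54.8 TPM, and Lifr runs from 0.616 to 0.750 TPM in the Insm1 libraries and from 1.18 to 2.15 TPM in the control libraries.

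Other genes of the pathway, and astrocyte genes as the last list, were taken from 7 lists with 74 genes. Of these, 73 were in the table and 60 were tested. Over these, 0 were called higher, 2 were called lower and 58 were not called, with a median log2 fold change of -0.02. Of the 60, 10 had an unadjusted p below 0.05, which is 16.7%, against 17.2% (2339) of all 13560 tested genes. The 2 called are 3.33% of the 60, against 3.35% of all tested genes, so both shares were near the background. The 2 called genes were both in the astrocyte list, and no ligand, receptor, kinase, STAT, adaptor, negative regulator or STAT3 target was called by edgeR.

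Of the 11 other ligands and ligand partners of the family, Il6, Il27 and Il31 had no counts in any library, and 6 were tested. None was called by edgeR or DESeq2, and none had an unadjusted p below 0.05 in either. Ctf1, which encodes cardiotrophin, was at 4.10, 3.18 and 1.13 CPM in the Insm1 libraries and 2.82, 2.499 and 3.49 CPM in the control libraries (log2 fold change -0.07, SE 0.43, adjusted p = 0.967 in edgeR). Cntf was at 0.840, 0.972 and 1.65 CPM in the Insm1 libraries and 0.939, 1.78 and 1.40 CPM in the control libraries (-0.25, SE 0.46, adjusted p = 0.856 in edgeR). No library had more than 4.10 CPM of either ligand gene. Exons of Ctf1 overlap those of Ctf2, and exons of Cntf those of Zfp91, so their counts are uncertain. Of the 4 other receptors 3 were tested and none called by edgeR or DESeq2, with 1 at an unadjusted p below 0.05 in each. In edgeR this was Il31ra, named after its values were seen, at 0, 0 and 0.291 CPM in the Insm1 libraries and 0.712, 0.357 and 0.881 CPM in the control libraries, with an adjusted p of 0.235 in edgeR. Il6ra, the interleukin-6 binding subunit, was at 0.194 to 0.972 CPM with Insm1 and 0.356 to 1.66 CPM in controls, and its sign changed without control library 2. Il11ra1, whose counts are uncertain because it has near-identical copies and shares exon sequence with Ccl27a on the other strand, was at 4.17 to 4.83 CPM with Insm1 and 2.71 to 6.17 CPM in controls.

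Of the 8 other JAK and STAT genes, all tested, none was called by edgeR, with 0 at an unadjusted p below 0.05, or by DESeq2. Stat2, a factor of interferon responses, was at 13.4 to 23.7 CPM with Insm1 and 9 to 17.98 CPM in controls. Of the 7 adaptors that lead to ERK and PI3-kinase, none was called by edgeR or DESeq2, and 1 had an unadjusted p below 0.05 in each. In edgeR this was Shc1, named after its values were seen, at 6.82, 7.97 and 8.501 CPM in the Insm1 libraries and 12.4, 10.2 and 11.0 CPM in the control libraries (log2 fold change -0.53, SE 0.18, adjusted p = 0.148 in edgeR). Grb2 was at 154 ± 9.19 CPM with Insm1 and 144 ± 1.76 CPM in controls, and Sos1 at 135 ± 7.77 CPM with Insm1 and 128 ± 2.69 CPM in controls. The proteins of both genes link receptors to Ras.

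Of the 16 negative regulators 15 were tested and none was called by edgeR or DESeq2, with 1 at an unadjusted p below 0.05 in each. The tyrosine phosphatase gene Ptpn1 was at 142 ± 17.2 CPM with Insm1 and 126 ± 5.94 CPM in controls (log2 fold change 0.17, SE 0.09, adjusted p = 0.372 in edgeR). Pias4, a SUMO ligase of the family that restrains STAT factors, was at 42.8 ± 1.49 CPM with Insm1 and 39.1 ± 2.37 CPM in controls (0.13, SE 0.09, adjusted p = 0.556 in edgeR). The list median was 0.11. Socs1, the one with an unadjusted p below 0.05 and named after its values were seen, was at 2.26, 1.62 and 1.42 CPM in the Insm1 libraries and 1.13, 0.681 and 0.849 CPM in the control libraries, with an adjusted p of 0.262 in edgeR.

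Of the 16 known targets of STAT3, 15 were in the table and 10 were tested, with a list median of 0.11. None was called by edgeR, with 2 at an unadjusted p below 0.05, both higher, and DESeq2 called the same 2 higher. These were the kinase gene Pim3 and the transcription factor gene Myc. Pim3 was at 92.8, 105 and 108 CPM in the Insm1 libraries and 74.2, 86.3 and 70.1 CPM in the control libraries, groups that did not overlap (log2 fold change 0.41, SE 0.10, adjusted p = 0.0528 in edgeR). Myc, named after its values were seen, was at 48.1, 51.4 and 44.1 CPM with Insm1 and 30.04, 37.1 and 36.4 CPM in controls (0.47, SE 0.11, adjusted p = 0.0530 in edgeR). Mcl1, a survival gene of high expression, was at 353 ± 31.8 CPM with Insm1 and 341 ± 30.9 CPM in controls. With other settings edgeR called Myc higher with RLE scaling, and both Myc and Pim3 with no filter, with at least 5 CPM in 3 libraries and without control library 2, and Pim3 also without Insm1 library 1. In the fits with all 6 libraries that used limma, the replicate block, upper-quartile scaling or no robust step, neither was called.

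Of the 12 astrocyte genes 11 were tested, 2 fell, none rose and 9 did not pass, with a median of -0.35. Of the 11, 5 had an unadjusted p below 0.05, namely Aldoc, Gja1 and Sparcl1, lower, and Aqp4 and Atp1b2, higher. Over all tested genes 2.12% were called lower, 1.23% were called higher and 17.2% had an unadjusted p below 0.05. DESeq2 called the same 2 lower and Atp1b2 higher. Aldoc, which encodes a glycolytic aldolase of astrocytes and radial glia, was at 93.0, 108 and 68.5 CPM in the Insm1 libraries, against 179, 144 and 162 CPM in the control libraries. It fell 1.80-fold (log2 fold change -0.84, SE 0.15, adjusted p = 0.0207 in edgeR). Gja1, which encodes the gap junction protein connexin 43 and is also expressed by radial glia, was at 48.6, 52.2 and 36.2 CPM with Insm1 and 82.5, 61.9 and 73.1 CPM in controls. It fell 1.59-fold (-0.67, SE 0.15, adjusted p = 0.0391 in edgeR). Aldoc lost the call without Insm1 library 1, control library 1 or control library 3, with log2 fold changes of -0.87, -0.76 and -0.84. Gja1 lost it without any library but control library 2, with log2 fold changes between -0.77 and -0.52. Aqp4, the astrocyte water channel gene, named after its values were seen, was at 0.873 to 1.59 CPM with Insm1 and 0.130 to 0.486 CPM in controls (1.81, SE 0.59, adjusted p = 0.141 in edgeR). Sparcl1, which encodes a secreted matrix protein, also named after its values were seen, was at 0.940 to 2.72 CPM with Insm1 and 2.47 to 4.76 CPM in controls (-1.31, SE 0.45, adjusted p = 0.165 in edgeR).

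**Figure D3:**
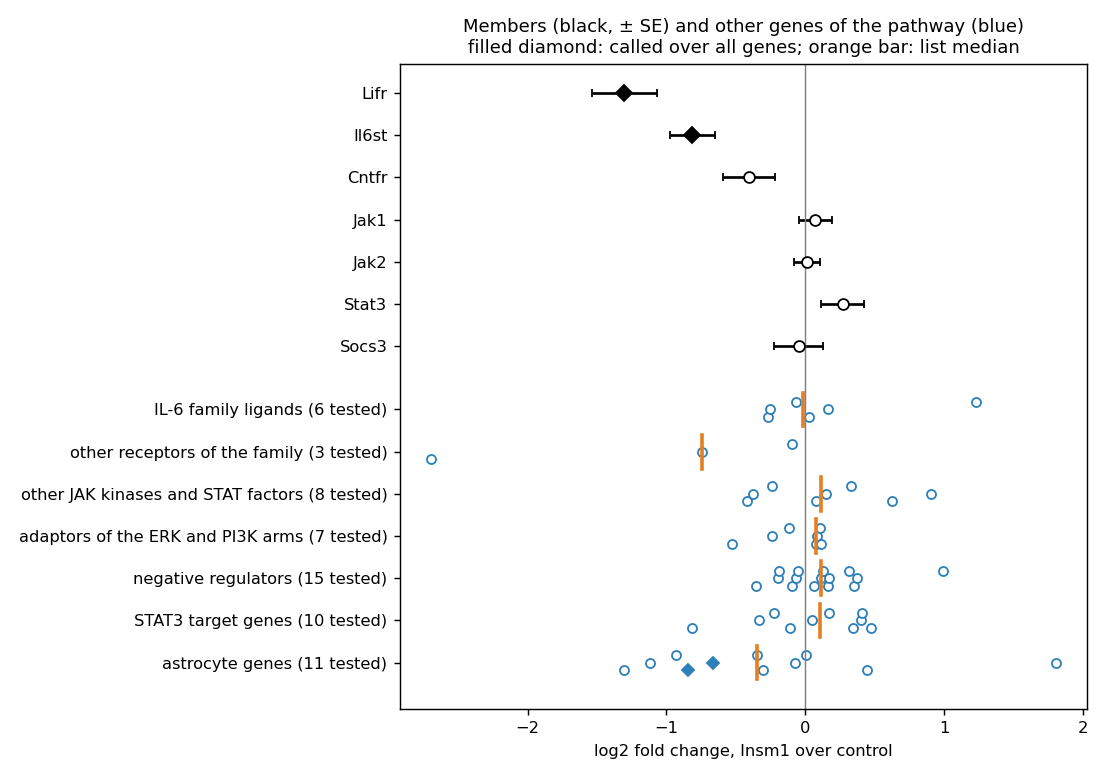
Log2 fold change, Insm1 over control, of the 7 tested members (black, with SE) and of the tested genes of 7 other lists, that of astrocyte genes included (blue). Filled diamonds are called genes and orange bars are list medians. Lifr (-1.30) and Il6st (-0.81) stand at the left among the members, and the only filled blue diamonds are Aldoc (-0.84) and Gja1 (-0.67).

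Genes with the profile most like that of Lifr over the 6 libraries were Mgll, a lipase gene, Tnfrsf19, a TNF receptor relative, and Dab1, the reelin adaptor. Likeness was the root mean square difference of centred log2 CPM, which was 0.067, 0.11 and 0.13 for these, with a median of 0.66 over the 10315 genes compared. For Il6st they were Gpx8, a peroxidase gene, Map3k1, a kinase gene, and Fgfbp3, which encodes an FGF-binding protein, at 0.068, 0.074 and 0.092, with a median of 0.44. Il6st came at place 73 in the order of Lifr, at 0.30, and Lifr at place 734 in that of Il6st. The 2 receptor genes were therefore each closer to many other genes than to one another. Their difference of 0.30 was still below both medians, 0.66 and 0.44, and both genes were chosen as lower with Insm1. In control library 2 Lifr was at 9.15 CPM, against 14.1 and 15.99 CPM in the other controls, and Il6st at 15.6 CPM, against 17.5 and 18.7 CPM.

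Markers of other cell types differed between the same libraries. Over all tested genes 2.12% were called lower and 1.23% higher, and the marker lists were chosen with earlier results of these data known. Of 11 apical progenitor genes, which mark the radial glia at the ventricle, 5 fell (Fabp7, Nes, Nr2e1, Slc1a3 and Vim) and none rose, and their summed level was 2441 to 2985 CPM in the Insm1 libraries and 3275 to 3792 CPM in the control libraries. Of 7 basal progenitor genes, which mark the progenitors that have left the ventricle, 3 were called higher (Mfng, Nhlh1 and Sstr2) and none lower. Eomes, the most abundant of this list in controls, was not called, nor were Neurog2, Btg2 and Gadd45g. The log2 fold changes of these uncalled genes were -0.05, -0.12, -0.06 and -0.41. The list's sums were 1708 to 1986 CPM with Insm1 and 1559 to 1798 CPM in controls. Of 9 projection neuron genes 5 rose, Neurod1 and Tubb3 among them, and none fell, with sums of 8441 to 9176 CPM with Insm1 and 7235 to 7440 CPM in controls. Of 7 Cajal-Retzius genes, markers of the early neurons at the cortical surface, edgeR called none, with 3 at an unadjusted p below 0.05, and DESeq2 called Lhx1 and Lhx5 lower. Their sum was 122, 117 and 88.9 CPM in the Insm1 libraries and 207, 72.4 and 181 CPM in the control libraries, so that control library 2 was the lowest control for this list as it was for Lifr. Of these sums Nhlh2 alone gave 70.6, 76.8 and 53.7 CPM in the Insm1 libraries and 72.2, 38.1 and 51.1 CPM in the control libraries. Its log2 fold change was 0.32, whereas those of the rest of the list were negative, from -0.48 to -2.66. None of the markers in these 4 lists was at 0 in every library. Markers of microglia, red blood cells, interneurons, meninges, vessels and oligodendrocyte precursors were not called by edgeR, with 2 interneuron genes at an unadjusted p below 0.05, and DESeq2 called Dlx1, an interneuron gene, lower. Only 3 of 5 meninges genes, 1 of 8 vessel genes and 2 of 5 oligodendrocyte precursor genes had enough counts to be tested. The part of all these markers in the values of Lifr and Il6st was not tested.

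**Figure D4:**
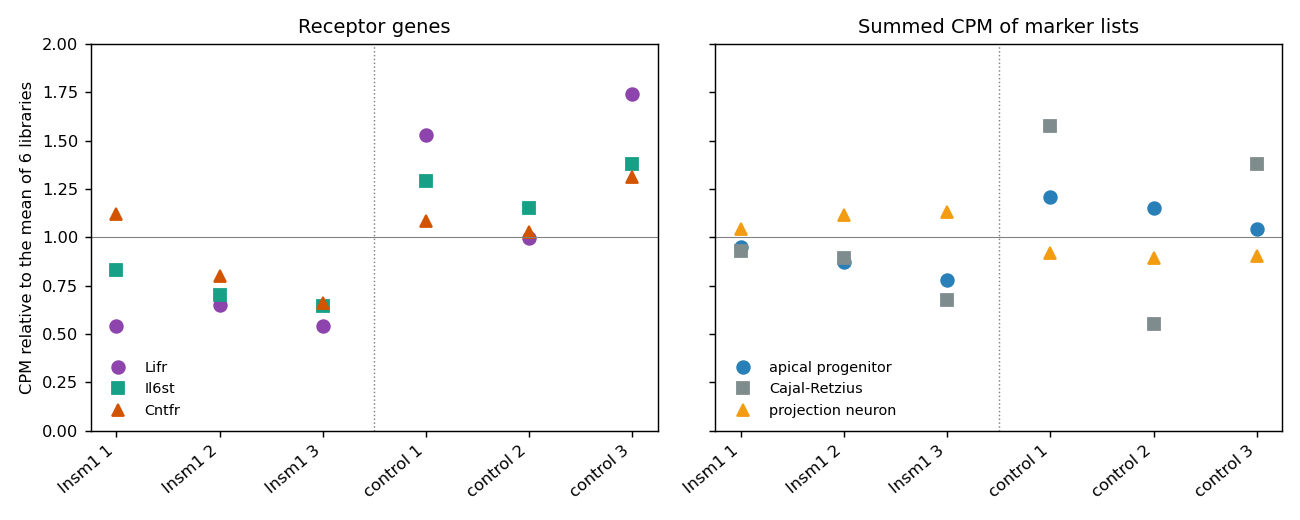
Values in each library divided by the mean of the 6 libraries, Insm1 libraries left of the dotted line and control libraries right of it, with CPM of Lifr, Il6st and Cntfr in the left panel and summed CPM of 3 marker lists in the right panel. Apical progenitor sums are lower in all Insm1 libraries (2441 to 2985 CPM) than in the controls (3275 to 3792 CPM), and control library 2 is the lowest control for Lifr (9.15 CPM) and for Cajal-Retzius genes (72.4 CPM).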

How the data were processed

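Per the labels' protocols, poly-dT-primed cDNA of sorted cells went through 12 cycles of amplification, was sheared, and gave libraries after 15 further cycles, sequenced as single 75-base reads. The submitters' processing notes name bcl2fastq, TopHat2 2.0.13, Bowtie and GRCm38. They name no counter, and neither strandedness nor an annotation release is given. The authors deposited whole-number counts per Ensembl gene, and TPM values that equal those counts over 1 length per gene, rescaled in each library. No 2 libraries of a group agreed within counting noise (chi-square over degrees of freedom 12.9 to 32.5), which does not show that they are separate biological samples.

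From the counts, genes kept by filterByExpr were scaled by TMM (factors 0.975 to 1.02) and the groups compared with edgeR 4.0.16 in R 4.3.3, a robust quasi-likelihood fit over all 13560 genes with no covariate. A gene was called where its p, adjusted after Benjamini and Hochberg, was below 0.05. SEs come from its F statistic. The fit was tested on simulated counts of 13362 genes. It recovered 48.8% of 82 genes changed 1.5-fold, 73.1% of 52 changed 2-fold and 91.8% of 61 changed 4-fold. It also called 16 unchanged genes, so a gene that is not called may still differ and a called one may not. The members and lists were chosen with earlier results of these data known. The named genes are the members, Insm1, called list genes or else each list's 2 of highest TPM, and the 3 profiles nearest to Lifr and Il6st among genes of at least 5 CPM. The STAT3 target Cebpd was not analysed here, and 1 gene that this rule names is not reported here. Motifs were searched on both strands of RefSeq windows. Other settings tried were DESeq2 1.42.0, limma 3.58.1 (voom, or log2 of TPM with a pseudocount of 1 or 0.1), scaling by RLE or the upper quartile, no filter or at least 5 CPM in 3 libraries, a fit that is not robust, the replicate number as a block, and each library left out. Coordinates are from GENCODE M21.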

Additional observations from a re-analysis of the deposited data

How the results depend on the processing

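Over all genes 454 were called, 1004 with DESeq2, 60 and 64 with limma on log2(TPM + 1) and log2(TPM + 0.1), and 101 to 631 with single libraries left out, where the lowest count was without control library 3 and the highest without control library 2. Counts without Insm1 library 2, Insm1 library 3 and control library 1 were 176, 196 and 221. Of the members, 2 were called with TMM, RLE and upper-quartile scaling, DESeq2, limma-voom, either filter and the fit that is not robust, 0 with limma on either TPM scale, and 0 to 2 with single libraries left out. Of the genes on the other lists 2 were called, both astrocyte genes. The number was 5 with DESeq2, 4 with no filter and with at least 5 CPM in 3 libraries, 0 with limma on either TPM scale and 0 to 5 with single libraries left out. The genes gained were Myc and Pim3, Atp1b2 with DESeq2, and Socs2 without control library 2. The cause of these differences was not tested. On log2(TPM + 1), which lowers the fold changes of low genes, Lifr and Il6st had log2 fold changes of -0.69 and -0.62, and on log2(TPM + 0.1) of -1.22 and -0.85, close to -1.30 and -0.81.

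Lifr and Il6st were negative in all fits, and Insm1 was called in all of them, with log2 fold changes of 2.29 to 2.65. Signs changed only in genes that were not called. Mcl1 had a log2 fold change of -0.0144 on both TPM scales and of -0.023 to 0.12 with single libraries left out, Ctf1 lay between -0.45 and 0.31, Il11ra1 between -0.37 and 0.13 and Il6ra between -1.67 and 0.23. With the replicate number as a block 331 genes were called, 299 of them among the 454. They included 1 member (Lifr) and, of the other lists, 1 astrocyte gene (Aldoc). Same-numbered libraries did not deviate together, with correlations of 0.074, 0.035 and -0.055 over genes, and not every library correlated best with its own number, so the numbers were not taken as pairs. Depth limits Lif, Osmr and Gfap.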
